A study of Homo sapiens with 12 samples.

Results

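The primordial germ cell regulators described here are 10 genes chosen by name from the 26641 genes of the deposited count table: TFAP2C, TFAP2A, PRDM1, SOX17, NANOS3, DAZL, DDX4, KIT, DND1 and PDPN. RNA was sequenced from 6 lines of NCCIT, a human embryonal carcinoma cell line, in 2 independent biological replicates per line, to compare gene expression with and without recruitment of a dCas9 fusion to LTR5HS, the long terminal repeats of the endogenous retrovirus HERVK. Each line expressed a doxycycline-inducible, nuclease-dead Streptococcus pyogenes Cas9 fused to the activator VPR (dCas9-VPR, CRISPRa) or to the repressor KRAB (dCas9-KRAB, CRISPRi), together with 1 of 3 guide RNA arrays, each of 12 guides. The LTR5HS Sp array recruits the fusion to LTR5HS. The LTR5HS Sa array carries LTR5HS guides on a Staphylococcus aureus scaffold that this dCas9 does not use, and the nontarget Sp array carries guides designed to pair nowhere in the genome. The last 2 arrays were pooled as control, so that each fusion had 2 recruitment and 4 control libraries. All 12 libraries came from cells given doxycycline for 4 days. The 3 lines with dCas9-VPR were made from a single line carrying that fusion, and the 3 lines with dCas9-KRAB from another, by transposon insertion and drug selection. Line and array can therefore not be told apart within a fusion.

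Primordial germ cells are the embryonic precursors of eggs and sperm. In the human embryo they are induced by BMP and WNT signals, which switch on SOX17, PRDM1 and TFAP2C, while pluripotency factors such as POU5F1 and NANOG stay on. The RNA-binding proteins NANOS3 and DND1 then protect the young germ cells, DAZL and the helicase DDX4 follow as the cells mature, and KIT and PDPN are found on the cell surface. Embryonal carcinoma is a germ cell tumour whose cells resemble the pluripotent epiblast more than primordial germ cells.

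The guides of the LTR5HS array hold 16 bases that pair with the genome. Exact matches of the 12 guides followed by the NGG that S. pyogenes Cas9 requires were found at 2938 places of GRCh38. These places fell into 947 clusters, of which 646 were matched by at least 2 guides, and distances were measured to those 646 only. DDX4 was the 1 member of 10 with such a cluster within 200 kb of its start of transcription, against 12.7% of the 15218 tested genes with an annotated start. The 5 targets of that cluster, 166.2 kb upstream of DDX4 and outside every gene of GENCODE 44, are shown because no other cluster matched by at least 2 guides lay as close to the start of a member. Lower case marks the bases of the guide and capitals mark the NGG. From the lowest coordinate upward, they lie at chr5:55571397-55571415 (minus strand), chr5:55571490-55571508 (plus), chr5:55571579-55571597 (minus), chr5:55571642-55571660 (plus) and chr5:55571870-55571888 (plus).
LTR5HS-7: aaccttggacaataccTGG
LTR5HS-8: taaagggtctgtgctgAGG
LTR5HS-9: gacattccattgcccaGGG
LTR5HS-2: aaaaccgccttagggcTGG
LTR5HS-1: tactaagggaactcagAGG

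LTR5HS-8 matched the most places, 726, followed by LTR5HS-7 with 525 and LTR5HS-9 with 434, and all 3 are in the cluster near DDX4. The other members lay farther away. The nearest cluster was 425.6 kb upstream of SOX17, 1551.7 kb downstream of the PDPN start and 1644.7 kb upstream of NANOS3. It was 2331.7 kb from DAZL, 3412.1 kb from TFAP2C, 5168.9 kb from PRDM1, 6372.0 kb from KIT, 7505.9 kb from TFAP2A and 9780.6 kb from DND1. The median distance over tested genes was 1498.3 kb, so 8 of the 10 members were farther than that. SOX17, NANOS3 and DDX4 are themselves not among the tested genes, because they did not pass the filter on low counts. The members nearer than the median, DDX4 and SOX17, both belong to these untested ones. These distances count exact guide matches, not binding measured in these cells.

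PRDM1 and PDPN are the 2 members that passed the test with dCas9-VPR, in opposite directions, and the 250 bases before their starts are therefore given from RefSeq (GRCh38.p14). PRDM1 lies on chromosome 6 at 105993463 to 106109939 on the plus strand and PDPN on chromosome 1 at 13583465 to 13617957 on the plus strand. The windows are chr6:106086086-106086335 for PRDM1 and chr1:13583582-13583831 for PDPN, both on the plus strand. They were searched on both strands for GCCNNNGGC, the palindromic site bound by AP-2 factors, the family of TFAP2A and TFAP2C, and a match is in capitals.
PRDM1: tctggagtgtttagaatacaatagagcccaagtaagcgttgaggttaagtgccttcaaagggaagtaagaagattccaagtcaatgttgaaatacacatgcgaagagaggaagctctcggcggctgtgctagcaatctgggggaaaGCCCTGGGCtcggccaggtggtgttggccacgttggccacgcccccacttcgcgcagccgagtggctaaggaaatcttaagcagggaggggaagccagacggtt
PDPN: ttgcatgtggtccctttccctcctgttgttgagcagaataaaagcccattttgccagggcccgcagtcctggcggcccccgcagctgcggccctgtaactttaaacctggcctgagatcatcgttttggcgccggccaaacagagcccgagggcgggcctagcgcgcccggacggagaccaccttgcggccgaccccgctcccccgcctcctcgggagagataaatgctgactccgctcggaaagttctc

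The PRDM1 window held 1 match, which starts 104 bases before the start of transcription. PDPN had no match in this window. A match was present in 23.2% of 35116 RefSeq promoters, each searched from 250 bases before to 50 bases after its start. The PDPN window belongs to the canonical transcript, which is 1 of 3 starts in that table, none of them with a match. The PRDM1 window is also that of the canonical transcript. PRDM1 has another start in that table, at 106098941, with 1 match that starts 138 bases before it. No guide of the array matched a promoter window of the members that were searched. TFAP2C has no entry in that table, and the promoter of SOX17 was not searched.

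Library totals ranged from 13601701 to 69797411 counts with a median of 18256928, and the deepest library was dCas9-KRAB nontarget Sp replicate 2. Levels are given in CPM, counts scaled to a common library size after normalization by the trimmed mean of M-values (TMM), and 3 counts correspond to between 0.0455 and 0.233 CPM. The label of embryonal carcinoma was checked with 10 markers, all at 1 CPM or more in every library. Their summed level was 4795 to 6307 CPM in the 6 libraries with dCas9-KRAB and 1108 to 1724 CPM in the 6 with dCas9-VPR. NANOG, a core pluripotency factor, was at 92.9 to 185 CPM with dCas9-KRAB and at 1.05 to 5.01 CPM with dCas9-VPR. The lines with dCas9-VPR thus stood apart from their label in a defining marker, in recruitment and control libraries alike.

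In each comparison 7 of the 10 members passed the filter on low counts. SOX17, the transcription factor at the top of the human germ cell programme, had 0 to 7 counts per library. NANOS3 had 1 to 6 counts and DDX4 0 to 5 counts. These 3 genes did not pass the filter, and fits without it are not given for them. Levels near 3 counts cannot be told from the floor. DDX4, the member with the nearest guide cluster, had 2 and 3 counts in the recruitment libraries with dCas9-VPR and 2, 1, 2 and 3 counts in the control libraries. No rise of DDX4 was therefore detectable at this depth.

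Levels of different members can be compared per kilobase of gene length. In the dCas9-KRAB control libraries the mean level was 63.7 CPM per kb for PDPN and 36.5 for TFAP2A. TFAP2C followed with 23.1, DND1 with 14.9 and KIT with 5.32 CPM per kb. DAZL, PRDM1, NANOS3, SOX17 and DDX4 were at 0.383, 0.273, 0.15, 0.0344 and 0.0212 CPM per kb. In the dCas9-VPR control libraries TFAP2A and PDPN were at 49.4 and 48.6 CPM per kb, DND1 at 11.9, TFAP2C at 9.53 and KIT at 1.53. The order of TFAP2A and PDPN is not resolved there, because TFAP2A ranged from 107 to 337 CPM among those 4 libraries. PRDM1, NANOS3, DAZL, SOX17 and DDX4 were at 0.313, 0.162, 0.115, 0.0664 and 0.0338 CPM per kb. The 5 genes that lead, among them both AP-2 factors and both surface proteins, were the same with either fusion.

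**Figure D1:**
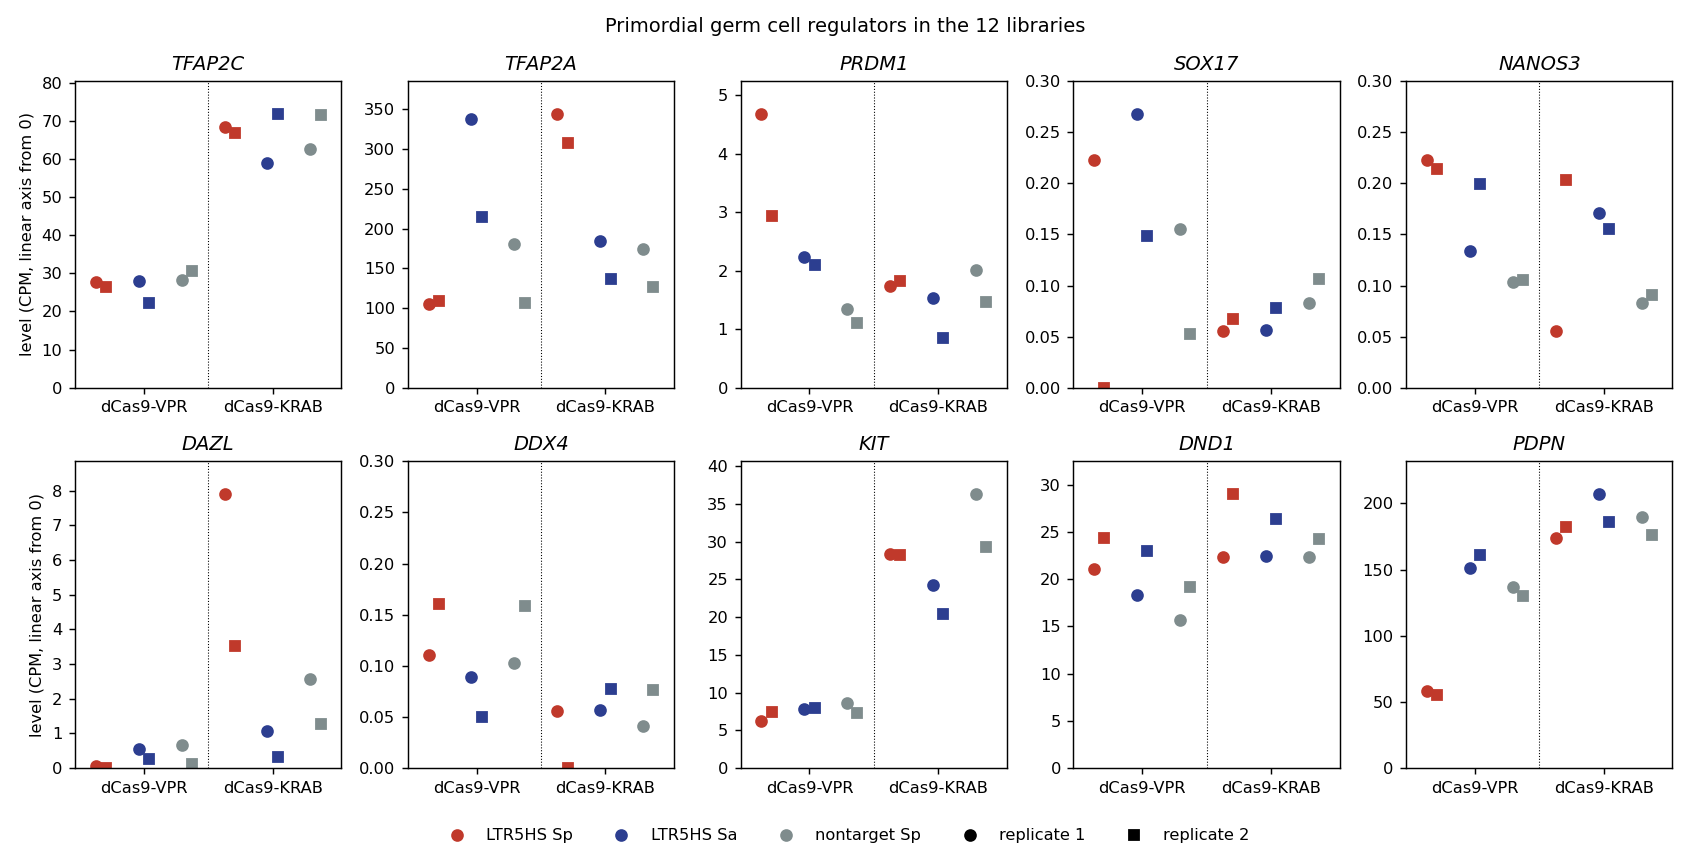
Level of each member in CPM (linear axis from 0, a scale of its own in each panel) in the 12 libraries, dCas9-VPR left and dCas9-KRAB right of the dotted line. Points are single libraries, coloured by array, with circles for replicate 1 and squares for replicate 2. PDPN is at 55.5 and 58.3 CPM in the dCas9-VPR recruitment libraries and at 130.1 or more elsewhere, and TFAP2A is at 307 and 344 CPM in the dCas9-KRAB recruitment libraries.

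With dCas9-VPR, recruitment to LTR5HS was accompanied by higher PRDM1 and lower PDPN, and the other 5 tested members did not pass the test. The test was edgeR's quasi-likelihood F-test with Benjamini-Hochberg adjustment over all 16271 genes tested and a threshold of 0.05, which is used throughout. In this comparison 28.0% of all tested genes passed, 15.7% higher and 12.3% lower, against 2 of the 7 tested members, 1 in each direction. The share among the members is thus close to that among all genes. At an unadjusted p under 0.05 there were 4 members, and DESeq2 called 2. The median log2 fold change was -0.20 over the 7 members and -0.02 over all tested genes.

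PDPN encodes podoplanin, a mucin-like membrane glycoprotein used to sort human primordial germ cells. It was at 58.3 and 55.5 CPM in the 2 recruitment libraries with dCas9-VPR. The LTR5HS Sa libraries had 151 and 161 CPM and the nontarget Sp libraries 137 and 130.1 CPM. Recruitment libraries were below all 4 control libraries, and PDPN was 2.54-fold lower (log2 fold change -1.35, SE 0.13, edgeR adjusted p = 0.000139). With dCas9-KRAB it was at 174 and 182 CPM against 207, 186, 190.1 and 176 CPM in the control libraries, and these groups overlapped (log2 fold change -0.09, SE 0.10, edgeR adjusted p = 0.753). Set against each other, the 2 log2 fold changes of PDPN differed by -1.26 (SE 0.15, edgeR adjusted p = 4.77e-05).

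PRDM1 encodes BLIMP1, a zinc finger repressor that shuts down the somatic programme in germ cell precursors. The annotated gene overlaps ATG5 and a long noncoding RNA, from which its reads may not be separable. Its level was 4.68 and 2.94 CPM in the dCas9-VPR recruitment libraries, from 84 and 55 counts. The control libraries had 2.23 and 2.09 CPM with LTR5HS Sa and 1.34 and 1.10 CPM with nontarget Sp. The groups did not overlap, and PRDM1 was 2.23-fold higher (log2 fold change 1.16, SE 0.34, edgeR adjusted p = 0.0368). The 2 recruitment libraries lay farther apart than the lower of them lay from the highest control library. This call was lost when either recruitment library or either nontarget Sp library was left out (edgeR adjusted p = 0.29 and 0.0615 without LTR5HS Sp replicate 1 and 2, and 0.0694 and 0.0621 without nontarget Sp replicate 1 and 2), and over all 15 alternatives the adjusted p ranged from 0.00482 to 0.29. With dCas9-KRAB, PRDM1 was at 1.74 and 1.83 CPM against 0.854 to 2.02 CPM in the control libraries (log2 fold change 0.25, SE 0.33, edgeR adjusted p = 0.789). The difference between the fusions did not pass the test for PRDM1 (0.91 on the log2 scale, SE 0.50, edgeR adjusted p = 0.23).

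In CRISPRi, TFAP2A was the 1 of 7 tested members that passed the test, and it was higher with recruitment. Of all 15520 tested genes 2.77% passed, 0.831% higher and 1.94% lower. The median log2 fold change was 0.11 over the members and 0.00 over all tested genes. TFAP2A encodes AP-2 alpha, a transcription factor of neural crest and surface ectoderm that is also switched on early in human germ cell precursors. It lies on chromosome 6 at 10393186 to 10419659 on the minus strand and overlaps annotated antisense RNAs, whose reads cannot be separated here.

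TFAP2A was at 344 and 307 CPM in the dCas9-KRAB recruitment libraries. The LTR5HS Sa libraries had 184 and 137 CPM and the nontarget Sp libraries 174 and 126 CPM, all below the recruitment libraries. TFAP2A was 2.1-fold higher (log2 fold change 1.07, SE 0.15, edgeR adjusted p = 0.00406). The call was lost without dCas9-KRAB LTR5HS Sp replicate 1 (log2 fold change 0.98, adjusted p = 0.0513) and with all 12 libraries in 1 fit (1.07, adjusted p = 0.0958), and over the 15 alternatives the adjusted p ranged from 5.14e-08 to 0.0958. Without the deepest library it was 0.98 (edgeR adjusted p = 0.00764).

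With dCas9-VPR the same gene was at 105 and 109 CPM in the recruitment libraries, the lowest levels of the series together with 107 CPM in nontarget Sp replicate 2. The other 3 control libraries had 337, 214 and 181 CPM, so the groups overlapped in 1 library (log2 fold change -0.97, SE 0.38, edgeR adjusted p = 0.0956). Without nontarget Sp replicate 2 the log2 fold change was -1.19 (edgeR adjusted p = 0.0157), and over the 15 alternatives the adjusted p ranged from 0.000962 to 0.302. The difference between the fusions passed the test (-2.04 on the log2 scale, SE 0.45, edgeR adjusted p = 0.00558).

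TFAP2C encodes AP-2 gamma, the paralogue of TFAP2A that is required for human germ cell specification and is a marker of germ cell tumours. It lies on chromosome 20 at 56629306 to 56639283 on the plus strand. Its level did not pass the test with either fusion. With dCas9-VPR it was at 27.6 and 26.5 CPM in the recruitment libraries and at 27.9, 22.3, 28.2 and 30.7 CPM in the control libraries (log2 fold change -0.01, SE 0.15, edgeR adjusted p = 0.96). With dCas9-KRAB it was at 68.3 and 66.9 CPM against 59.0, 71.8, 62.7 and 71.5 CPM (log2 fold change 0.03, SE 0.12, edgeR adjusted p = 0.939). In both fusions the recruitment libraries lay within the range of the control libraries.

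DAZL encodes an RNA-binding protein that promotes translation in maturing germ cells, and it has related copies on the Y chromosome, with which some reads may be shared. It had the largest estimated changes among the tested members, on few counts. With dCas9-VPR the recruitment libraries had 1 and 0 counts and the control libraries 12, 5, 13 and 2 counts. The rate of counts in the pooled recruitment libraries was 0.069 times that in the control libraries, with an exact 95% interval of 0.00169 to 0.413 that covers counting error only. The fitted log2 fold change of -3.57 (SE 1.20) depends on the prior count and did not pass the test (edgeR adjusted p = 0.0576). With the replicate number as a block it did (-3.56, edgeR adjusted p = 0.0233), and likewise without nontarget Sp replicate 2 (-3.87, edgeR adjusted p = 0.0271), and over the 10 alternatives in which it could be tested the adjusted p ranged from 0.0233 to 0.275.

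With dCas9-KRAB, DAZL had 141 and 52 counts in the recruitment libraries, or 7.90 and 3.52 CPM. The LTR5HS Sa libraries had 19 and 4 counts (1.08 and 0.311 CPM) and the nontarget Sp libraries 62 and 83 counts (2.56 and 1.26 CPM). Recruitment libraries were above all control libraries, but both groups had a wide spread (5.71 ± 3.10 CPM, SD, n = 2, against 1.30 ± 0.934 CPM, n = 4). DAZL was 4.21-fold higher without passing the test (log2 fold change 2.08, SE 0.52, edgeR adjusted p = 0.0797). The replicate block brought it past the threshold (2.00, edgeR adjusted p = 0.0341), as did leaving out nontarget Sp replicate 1 (2.55, edgeR adjusted p = 0.00816), and over 14 alternatives the adjusted p ranged from 0.00221 to 0.38. The contrast of dCas9-VPR with dCas9-KRAB passed the test for DAZL (-5.68 on the log2 scale, SE 1.49, edgeR adjusted p = 0.0157), but not without dCas9-KRAB LTR5HS Sp replicate 1 (-5.00, edgeR adjusted p = 0.0508) or dCas9-VPR LTR5HS Sp replicate 2 (-4.78, edgeR adjusted p = 0.0877), and its 16 alternatives ranged from 0.00328 to 0.0877.

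DND1 binds RNA and protects germ cells from losing their identity, and KIT is the receptor of stem cell factor, which guides migrating germ cells. Neither passed the test with recruitment. DND1 was at 21.1 and 24.4 CPM with dCas9-VPR recruitment and at 15.7 to 23 CPM in the controls (log2 fold change 0.26, SE 0.18, edgeR adjusted p = 0.318). With dCas9-KRAB its levels were 22.3 and 29.0 CPM against 22.3 to 26.4 CPM (log2 fold change 0.11, SE 0.15, edgeR adjusted p = 0.796). DND1 overlaps HARS1 and WDR55 in the annotation, so its counts may be shared with them.

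KIT was at 6.29 and 7.43 CPM with dCas9-VPR recruitment against 7.76, 8.0, 8.62 and 7.31 CPM in the controls, and the groups overlapped (log2 fold change -0.20, SE 0.17, edgeR adjusted p = 0.427). With dCas9-KRAB it was at 28.4 and 28.2 CPM against 24.2, 20.4, 36.3 and 29.3 CPM (log2 fold change 0.03, SE 0.20, edgeR adjusted p = 0.964). The dCas9-KRAB controls of KIT split by array, with both LTR5HS Sa libraries below and both nontarget Sp libraries above the recruitment libraries.

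**Figure D2:**
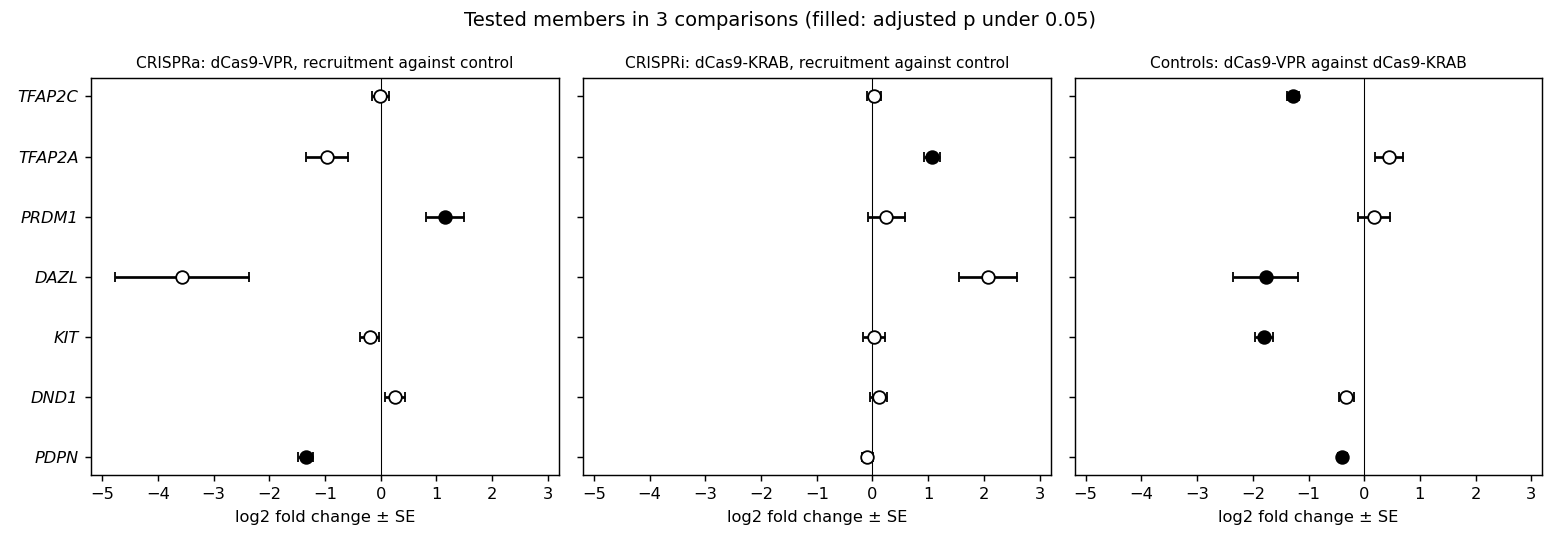
Log2 fold change with its SE for the 7 tested members in CRISPRa, in CRISPRi and between the control libraries of the 2 fusions. Filled points passed an edgeR adjusted p of 0.05. PDPN and PRDM1 pass in the first panel, TFAP2A in the second, and TFAP2C, KIT, PDPN and DAZL lie below 0 and pass in the third.

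Tested against each other over all 12 libraries, the effects of recruitment with the 2 fusions differed for 3 of the 7 members, TFAP2A, DAZL and PDPN, where 21.0% of 16673 genes passed. TFAP2A and DAZL had estimates of opposite sign with the 2 fusions, lower with dCas9-VPR and higher with dCas9-KRAB. PDPN differed because it was lower with dCas9-VPR and near 0 with dCas9-KRAB. For TFAP2C, KIT and DND1 the differences were -0.04, -0.24 and 0.15 on the log2 scale, with SEs of 0.19, 0.28 and 0.23.

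Control libraries were also compared between the fusions, which gives the levels of the members without recruitment. Of the 7 tested members 4 passed the test, all lower with dCas9-VPR, where 55.4% of all genes passed and 28.3% were lower with dCas9-VPR. TFAP2C was 2.43-fold lower (27.3 ± 3.55 CPM against 66.3 ± 6.43 CPM, SD, n = 4 each, log2 difference -1.28, SE 0.11, edgeR adjusted p = 1.2e-06). KIT was 3.49-fold lower (7.92 ± 0.546 CPM against 27.6 ± 6.85 CPM, log2 difference -1.80, SE 0.16, edgeR adjusted p = 2e-06). Both genes had every dCas9-VPR library below every dCas9-KRAB library, recruitment included.

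PDPN was lower by a smaller factor of 1.31 (145 ± 13.8 CPM against 189.8 ± 12.9 CPM, log2 difference -0.39, SE 0.08, edgeR adjusted p = 0.00167). DAZL was 3.42-fold lower (log2 difference -1.77, SE 0.58, edgeR adjusted p = 0.02), a call lost without dCas9-KRAB nontarget Sp replicate 1 (-1.28, edgeR adjusted p = 0.0742), dCas9-VPR LTR5HS Sa replicate 2 (-1.61, edgeR adjusted p = 0.0515) or dCas9-VPR nontarget Sp replicate 2 (-1.48, edgeR adjusted p = 0.0531), in a range of 0.00262 to 0.0742 over 16 alternatives. DND1 (-0.32, SE 0.13, edgeR adjusted p = 0.0572) passed with the replicate block (-0.32, edgeR adjusted p = 0.0125), and without dCas9-VPR LTR5HS Sa replicate 2 (-0.42, edgeR adjusted p = 0.019), in a range of 0.0125 to 0.143. TFAP2A (0.44, SE 0.25, edgeR adjusted p = 0.163) passed without dCas9-VPR nontarget Sp replicate 2 (0.65, edgeR adjusted p = 0.013, range 0.013 to 0.668), and PRDM1 did not pass (0.18, SE 0.29, edgeR adjusted p = 0.631). Fusion and parental line cannot be told apart in this comparison. In these bulk samples fewer cells that express a gene and less RNA per cell cannot be told apart either.

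Markers moved along with TFAP2C and KIT. All 10 embryonal carcinoma markers passed the test and were lower in the dCas9-VPR controls, with a median log2 difference of -2.29. HAND1, a marker of trophoblast and of lateral mesoderm, was at 146 to 279 CPM in the dCas9-VPR controls and at 4.19 to 15.5 CPM in the dCas9-KRAB controls. The 8 trophoblast markers summed to 155 to 292 CPM and to 5.67 to 18.0 CPM, most of it HAND1, and the 3 tested passed and were higher with dCas9-VPR. Of the endoderm markers all 6 tested passed, 4 higher with dCas9-VPR (GATA4 by 2.52, GATA6 by 2.08, FOXA2 by 2.43 and APOA1 by 3.64 on the log2 scale) and 2 lower. The lower ones were CXCR4 (log2 difference -2.45, edgeR adjusted p = 0.000352) and HNF4A (a mean of 0.331 against 0.817 CPM). Of the 5 tested mesoderm markers 4 passed, 3 higher, among them PDGFRB by 2.91 and FOXF1 by 1.64, and 1 lower. TBX5 had a mean of 0.581 CPM in the dCas9-VPR controls against 1.25 CPM in the dCas9-KRAB controls, and NKX2-5 5.98 against 7.36 CPM. Of the 7 tested neural markers 5 passed, 1 higher and 4 lower. These counts stand beside 55.4% of all 16673 tested genes that passed in this comparison, 28.3% lower with dCas9-VPR. GCM1 and CGA, which define differentiated trophoblast, had 3 and 1 counts in total over the 4 dCas9-VPR control libraries, and ELF5 had 1. These genes were at 0 in both recruitment libraries with dCas9-VPR. The part of these markers in the differences of the members was not tested.

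**Figure D3:**
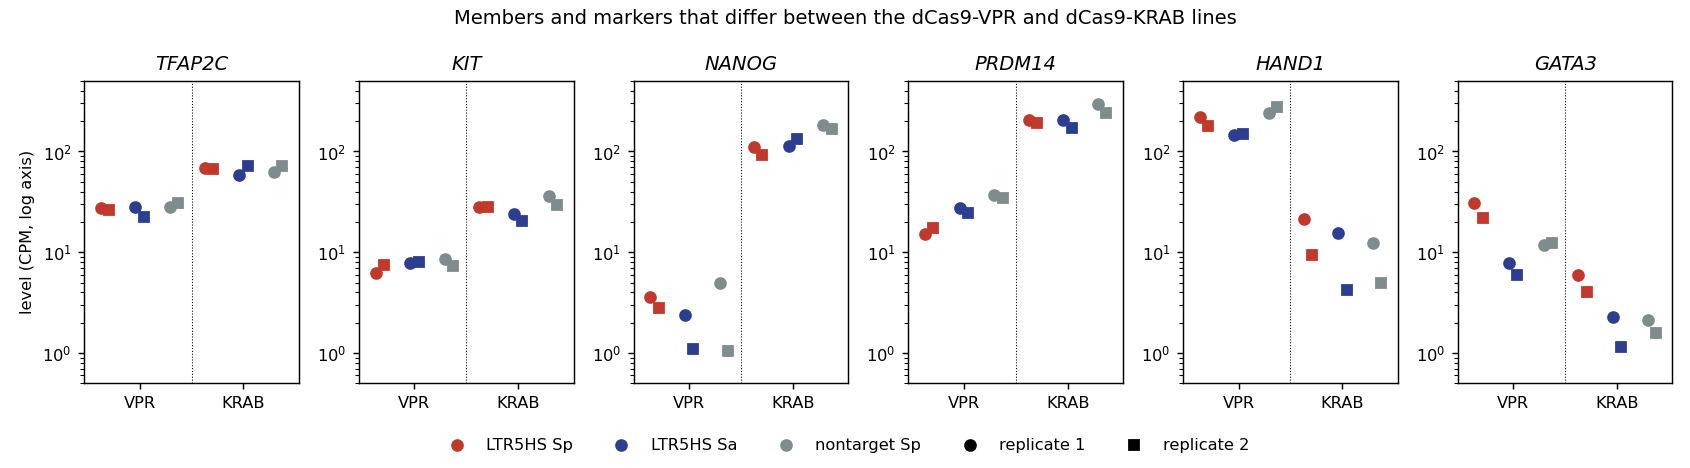
Levels of TFAP2C, KIT, the pluripotency factors NANOG and PRDM14 and the lineage markers HAND1 and GATA3 in CPM on a log axis, in the 12 libraries. Points are single libraries, coloured by array, with circles for replicate 1 and squares for replicate 2. For TFAP2C, KIT, NANOG and PRDM14 all libraries with dCas9-VPR lie below all with dCas9-KRAB, and for HAND1 the order is turned round.

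The 2 control arrays were compared within each fusion to see how far the pooled libraries differ. No member passed the edgeR test in either fusion, where 4.51% of genes passed with dCas9-VPR and 0.567% with dCas9-KRAB. At an unadjusted p under 0.05 there were 3 members with dCas9-VPR and 1 with dCas9-KRAB, and DESeq2 called 1 and 0. TFAP2A was higher with LTR5HS Sa than with nontarget Sp in dCas9-VPR lines (337 and 214 against 181 and 107 CPM, log2 difference 0.96, SE 0.26, edgeR adjusted p = 0.0756). With the replicate number as a block TFAP2A passed (0.96, edgeR adjusted p = 0.000119, in a range of 0.000119 to 0.0724 over 4 alternatives), as did PRDM1 (0.84, edgeR adjusted p = 0.0488, range 0.0488 to 0.465). In dCas9-KRAB lines DAZL was lower with LTR5HS Sa and passed with the block (-1.46, edgeR adjusted p = 0.0428, range 0.0264 to 0.516).

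Calls of 3 members changed with the control array used. Against LTR5HS Sa alone, PRDM1 was higher in CRISPRa by 0.80 on the log2 scale (edgeR adjusted p = 0.0619) and no longer passed, and TFAP2A was lower by a log2 fold change of -1.37 and passed (edgeR adjusted p = 0.000962). In CRISPRi, DAZL was higher by 2.96 against LTR5HS Sa alone (edgeR adjusted p = 0.00221). The nontarget Sp libraries of TFAP2A and DAZL lay closer to recruitment. TFAP2A was at 181 and 107 CPM there, against 105 and 109 CPM with dCas9-VPR recruitment. Over the 15 alternatives its log2 fold change in CRISPRa ranged from -1.37 to -0.42. DAZL was at 2.56 and 1.26 CPM with dCas9-KRAB nontarget Sp, against 7.90 and 3.52 CPM with recruitment, and its CRISPRi estimates ranged from 1.37 to 2.96.

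Around the members, 98 genes of germ cell biology were read from the same fits, in lists of inducing signals, shared pluripotency factors, surface and enzyme markers, paralogues and later germ cell genes. In CRISPRa 71 of them were tested, of which 13 rose and 11 fell, or 33.8% against 28.0% of all genes. Among the inducing signals 7 of 23 tested rose and 1 fell, with a median log2 fold change of 0.06 against -0.02 over all genes. Of the pluripotency factors 1 of 10 tested rose and 2 fell, of the surface and enzyme markers 1 of 6 rose and 3 fell, of the paralogues 1 of 17 rose and 4 fell, and of the later germ cell genes 3 of 15 rose and 1 fell. In CRISPRi 70 were tested, of which 2 rose and 2 fell, or 5.71% against 2.77% of all genes. Both that rose were inducing signals, of 21 tested, and those that fell were 1 of 7 surface and enzyme markers and 1 of 15 later germ cell genes. No pluripotency factor of 10 and no paralogue of 17 passed the edgeR test, with 3 and 2 at an unadjusted p under 0.05 and 0 in each list by DESeq2.

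Among the inducing signals, BMP4, the ligand that starts germ cell specification, rose with both fusions. With dCas9-VPR it was at 48.2 and 64.1 CPM against 14.9 to 17.3 CPM in the controls (3.50-fold higher, log2 fold change 1.81, SE 0.14, edgeR adjusted p = 5.26e-05). With dCas9-KRAB it was at 14.8 and 14.9 CPM against 5.99 to 8.44 CPM (2.01-fold higher, log2 fold change 1.01, SE 0.18, edgeR adjusted p = 0.0146), a call lost when either recruitment library was left out (edgeR adjusted p = 0.112 and 0.102, in a range of 7e-05 to 0.112 over 15 alternatives). BMP8A, another ligand of the family, was 4.87-fold higher in CRISPRa (17.4 and 18.9 against 3.25 to 4.17 CPM, edgeR adjusted p = 4.03e-05). EOMES, the T-box factor that acts upstream of SOX17 in human germ cell competence, was at 3.32 and 5.18 CPM against 0.149 to 0.316 CPM (log2 fold change 4.29, SE 0.35, edgeR adjusted p = 6.22e-05). SOX17 itself stayed at 4 and 0 counts in those recruitment libraries. ID4, a BMP target, rose in CRISPRi (20.1 and 24.2 against 8.86 to 14.2 CPM, 2.02-fold, edgeR adjusted p = 0.0237). That call was lost without any 1 of 4 libraries, LTR5HS Sp replicate 1 or 2, LTR5HS Sa replicate 1 and nontarget Sp replicate 2 (edgeR adjusted p = 0.208, 0.0776, 0.0589 and 0.0642, in a range of 0.00015 to 0.208).

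ALPL, the tissue-nonspecific alkaline phosphatase by which primordial germ cells are classically stained, moved in opposite directions with the 2 fusions. With dCas9-VPR it was at 449.5 and 559.5 CPM against 122 to 165 CPM in the controls, 3.66-fold higher (log2 fold change 1.87, SE 0.14, edgeR adjusted p = 4.88e-05). With dCas9-KRAB it was at 60.6 and 79.5 CPM against 159 to 193 CPM, 2.55-fold lower (log2 fold change -1.35, SE 0.14, edgeR adjusted p = 0.000598). The 2 log2 fold changes of ALPL differed by 3.22 (SE 0.21, edgeR adjusted p = 3.1e-07). EPCAM, an adhesion molecule used with integrin alpha 6 to sort germ cells, fell in CRISPRa (12.9 and 14.0 against 24.4 to 37.3 CPM, log2 fold change -1.22, SE 0.21, edgeR adjusted p = 0.00349).

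Of the pluripotency factors shared with germ cells, PRDM14 and UTF1 were lower in CRISPRa. PRDM14, a repressor related to PRDM1, was at 15.3 and 17.4 CPM against 24.3 to 37.1 CPM (log2 fold change -0.91, SE 0.19, edgeR adjusted p = 0.00899), and passed no longer without LTR5HS Sp replicate 1 (-0.81, edgeR adjusted p = 0.0896, in a range of 0.000116 to 0.0896). UTF1 was at 1.28 and 2.01 CPM against 2.73 to 5.46 CPM (log2 fold change -1.39, SE 0.36, edgeR adjusted p = 0.0215), a call lost without LTR5HS Sp replicate 1 (edgeR adjusted p = 0.0581) or 2 (0.17) and with nontarget Sp alone as control (0.0515), in a range of 0.00193 to 0.17. The paralogue of a member with the smallest adjusted p was SOX18, a vascular relative of SOX17, which was at 2.73 and 3.74 CPM against 8.83 to 12.7 CPM in the controls (log2 fold change -1.77, SE 0.24, edgeR adjusted p = 0.00116). SYCE1, a part of the synaptonemal complex of meiosis, moved in opposite directions with the fusions at a low level. It was higher in CRISPRa (0.979 ± 0.203 CPM, SD, n = 2, against 0.328 ± 0.11 CPM, n = 4, log2 fold change 1.55, SE 0.40, edgeR adjusted p = 0.0211), and the 2 log2 fold changes of SYCE1 differed by 4.05 (SE 0.65, edgeR adjusted p = 0.000607). It was 5.68-fold lower in CRISPRi (0.112 and 0.271 against 0.683 to 1.32 CPM, log2 fold change -2.51, edgeR adjusted p = 0.0363). The CRISPRi call of SYCE1 was lost without LTR5HS Sp replicate 1 or 2, LTR5HS Sa replicate 2 or nontarget Sp replicate 2 (edgeR adjusted p = 0.262, 0.111, 0.0533 and 0.0986, in a range of 0.0139 to 0.262).

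**Figure D4:**
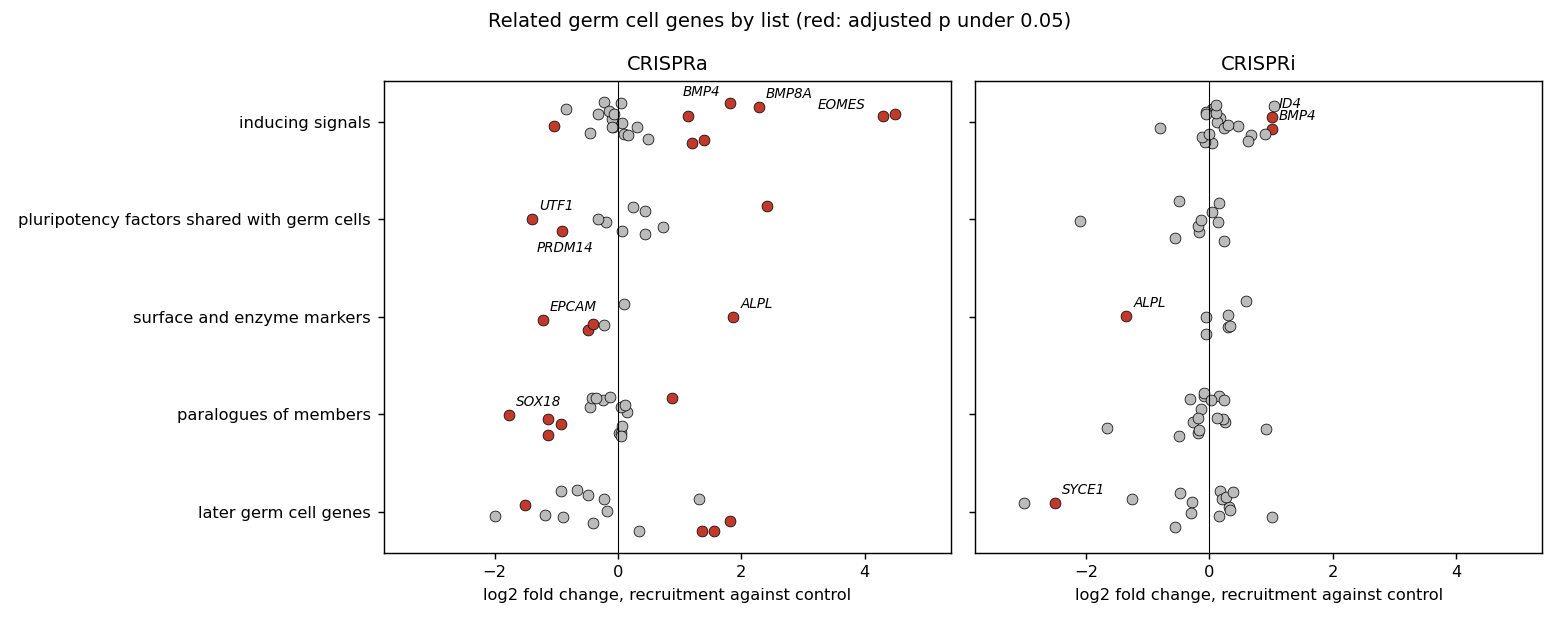
Log2 fold change of recruitment against control for each tested related gene, by list, in CRISPRa and CRISPRi. Each point is 1 gene, displaced at random in height, and red points passed an edgeR adjusted p of 0.05. In CRISPRa 13 genes rose and 11 fell, in CRISPRi 2 rose and 2 fell, and ALPL is at 1.87 and -1.35.

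Markers of embryonal carcinoma and of other lineages were read beside the changes with dCas9-VPR recruitment. Of the 10 embryonal carcinoma markers 3 passed, 1 higher and 2 lower, beside 28.0% of all genes. L1TD1 was higher (log2 fold change 1.62, edgeR adjusted p = 0.00274). SOX2 (-1.24, edgeR adjusted p = 0.00735) and DNMT3B (-0.62, edgeR adjusted p = 0.0116) were lower. In CRISPRi 0 of the 10 passed, with 5 at an unadjusted p under 0.05. The 6 mesoderm markers summed to 47.3 to 57.8 CPM against 16.5 to 25.6 CPM in the controls, and the 7 endoderm markers to 15.4 to 15.7 CPM against 8.03 to 8.94 CPM. Of these lists 1 of 5 tested mesoderm and 1 of 5 tested endoderm markers passed the edgeR test, both higher, as did 2 of 3 tested trophoblast markers, while 2 of 6 tested neural markers passed and were lower, beside 28.0% of all genes. The mesoderm sum was carried by PDGFRB, at 41.3 and 49.5 CPM against 8.52 to 12.6 CPM, and the median log2 fold change of the mesoderm list was -0.23, with estimates of -1.52 for NKX2-5, -1.06 for TBX5 and -0.23 for MESP1 that did not pass. The trophoblast sums were 204 and 255 CPM and lay within the range of the controls, and the 7 neural markers were at 1634 to 1768 CPM within 1089 to 1851 CPM. With dCas9-KRAB recruitment the mesoderm, endoderm and neural sums lay within the control ranges. The trophoblast sum was 13.7 to 27.6 CPM against 5.67 to 18.0 CPM, with ELF5, CGA and CGB5 at 0 in both recruitment libraries. Of the 2 tested trophoblast markers GATA3 passed, beside the higher TFAP2A and BMP4 (4.97 ± 1.38 CPM, SD, n = 2, against 1.79 ± 0.517 CPM, n = 4, log2 fold change 1.47, SE 0.29, edgeR adjusted p = 0.0259). The part of these markers in the changes of PRDM1, PDPN, TFAP2A and the inducing signals was not tested.

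For the 3 members that passed with recruitment, the genes of most similar pattern over the 12 libraries were sought among 14535 genes, by the root mean square distance of log2(CPM + 1) after centring each gene. CHAF1B and INSR were closest to PDPN, at 0.116 and 0.138, where PDPN itself had an SD of 0.632. For PRDM1 (SD 0.425) they were DPCD and ZNF124, at 0.187 and 0.193. For TFAP2A (SD 0.632) they were TUNAR and GPR137C, both at 0.346, so that no gene followed TFAP2A as closely as others followed PDPN. The log2 fold changes of CHAF1B and INSR with dCas9-VPR recruitment, -1.22 and -1.15 beside -1.35 for PDPN, are alike by this choice, since the same libraries chose the genes.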

How the data were processed

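RNA was sequenced from 6 lines in 2 replicates. Per the labels, polyadenylated RNA was used, and the authors processed reads with CASAVA 1.8, cutadapt 1.8.1, HISAT2 2.1.0 on hg38 and featureCounts 1.4.6-p2. The deposited table holds unnormalized read counts, 1 value for each gene in each library. Gene lengths are the authors' own. The annotation and the strand setting are not given in the sources used here, so overlapping and antisense genes were not separated. Library totals, in the report, set the precision, and floors and intervals cover counting error only.

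Differences were tested over the whole table by edgeR 4.0.16 under R 4.3.3 (filterByExpr, TMM, quasi-likelihood F-test, Benjamini-Hochberg adjustment over all genes tested, threshold 0.05), within each fusion or, for comparisons between fusions, in a fit of 12 libraries with 4 groups. Standard errors are the log2 fold change divided by the square root of F. Each fusion and array had a single line, so SDs, standard errors and p-values do not cover variation between independently made lines. The code was tested on simulated data. At an absolute log2 fold change of 1 it recovered 57 of 92 changed genes for CRISPRa and 77 of 96 for CRISPRi. At 2 it recovered 104 of 108 and 102 of 104. False calls were 10 of 171 and 14 of 193. A change near 1 on the log2 scale can therefore be missed. The replicate differences of the arrays correlated at 0.205 to 0.509 over 14557 genes within a fusion, so equal replicate numbers were treated as pairs in an alternative with a replicate block. The pairing comes from this check, not from the labels. Results were also recomputed with the size factors of DESeq2 1.42.0, its Wald test, no filter, 10 counts in every library, other control groups, a threshold of 0.01 and leaving out each library. Guide sequences from the study's tables were matched to GRCh38, sites up to 1500 bp apart were joined to clusters, and starts were taken from GENCODE 44. Python 3.11.15, pandas 2.3.3 and matplotlib 3.10.9 were used for the rest. Sequences of promoters are those of RefSeq, in a set without an entry for TFAP2C, and the promoter of SOX17 was not searched.

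The members and lists were chosen with earlier results of these data known. All members are named. Of the related genes, the 4 higher and 4 lower with the smallest adjusted p are named, and as genes of like pattern the 2 closest ones, among genes with a mean of at least 1 CPM. Markers were named where they moved with a result.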

Additional observations from a re-analysis of the deposited data

Results flagged for a closer look

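The effects of recruitment differed between the 2 fusions for 3 members by the test of the difference itself, in the fit of 12 libraries. For TFAP2A the log2 effect was -0.97 with dCas9-VPR and 1.07 with dCas9-KRAB, a difference of -2.04 (SE 0.45, edgeR adjusted p = 0.00558), which passed under all 16 alternatives run. For DAZL the effects were -3.57 and 2.08, a difference of -5.68 (SE 1.49, edgeR adjusted p = 0.0157) that rests on 1 count in the dCas9-VPR recruitment libraries. For PDPN the effects were -1.35 and -0.09, a difference of -1.26 (SE 0.15, edgeR adjusted p = 4.77e-05), which also passed under all 16 alternatives. None of these 16 alternatives used a single control array or kept the control arrays apart, so dependence on the control array was not tested for these differences. None of the 20 control groups of 4 libraries examined for the members held a library set apart from the other 3.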

How the results depend on the processing

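Counts of members past the threshold are small and move easily. In CRISPRa the count of 2 became 4 with the control arrays as separate groups and 1 at a threshold of 0.01, and it ranged from 1 to 3 when single libraries were left out. In CRISPRi the count of 1 became 2 with DESeq2's Wald test, without a filter, with the replicate block, with separate control arrays and with LTR5HS Sa alone, became 0 with all 12 libraries in 1 fit, and ranged from 0 to 2 without single libraries. The comparison of control arrays gave 0 members, 1 with DESeq2's Wald test, 2 without a filter and 3 with the replicate block. The replicate block changed no call of a named gene other than those given in the report.

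Of the related genes, 24 passed in CRISPRa, 12 at a threshold of 0.01 and 12 to 24 without single libraries. In CRISPRi 4 passed, 7 with DESeq2's Wald test, 7 without a filter, 9 with separate control arrays, 10 with nontarget Sp alone, 1 at a threshold of 0.01 and 1 to 4 without single libraries. Among single genes, 596 alternative values kept direction and side of the threshold, 29 fell short of it, 22 newly passed it and 14 changed sign. The cause of the changes was not tested.

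Estimates near 0 changed sign. TFAP2C became 0.10 in CRISPRa with LTR5HS Sa alone and ranged from -0.10 to 0.05 without single libraries, and in CRISPRi from -0.02 to 0.07. KIT in CRISPRi became -0.21 with nontarget Sp alone and ranged from -0.08 to 0.19, and DND1 there from -0.09 to 0.28. The difference between fusions ranged from -0.13 to 0.02 for TFAP2C and from -0.05 to 0.35 for DND1. KIT between the control arrays of dCas9-VPR became 0.00 with DESeq2's size factors and with its Wald test.

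SOX17, NANOS3 and DDX4 did not pass the filter on low counts and no test is given for them, and 2 recruitment libraries a fusion limit every estimate.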

Other observations

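Several genes of the germ cell lists and markers that are not named in the report moved with recruitment, and they were chosen here after their values were seen. WNT3, a ligand that cooperates with BMP4 in germ cell induction, had 41 and 221 counts in the dCas9-VPR recruitment libraries against 2, 20, 2 and 1 counts in the controls (log2 fold change 4.49, SE 0.91, edgeR adjusted p = 0.0075), and the recruitment replicates lay far apart at 2.28 and 11.8 CPM. TFCP2L1, a factor of naive pluripotency, was at 211 ± 29.8 CPM (SD, n = 2) against 40.0 ± 13.2 CPM (n = 4), a log2 fold change of 2.41 (SE 0.26, edgeR adjusted p = 0.000287). Of the later germ cell genes, TDRD12 (1.82, SE 0.30, edgeR adjusted p = 0.00276) and STK31 (1.36, SE 0.30, edgeR adjusted p = 0.0106) rose and the meiotic recombinase DMC1 fell (-1.50, SE 0.40, edgeR adjusted p = 0.0255).

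GATA3, a trophoblast factor, was higher with recruitment of both fusions, by 1.48 on the log2 scale (SE 0.29, edgeR adjusted p = 0.00617) with dCas9-VPR, beside the value with dCas9-KRAB in the report. PDGFRB, a mesenchymal receptor of the same kinase family as KIT, was at 45.4 ± 5.83 CPM against 9.84 ± 1.90 CPM with dCas9-VPR (log2 fold change 2.21, SE 0.19, edgeR adjusted p = 7.83e-05).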
